A study of Mus musculus with 6 samples.

Results

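The genes described here are 37 mouse genes of hepatic fatty acid use: the nuclear receptor PPAR-alpha (Ppara), enzymes and carriers of mitochondrial and peroxisomal fatty acid oxidation, microsomal fatty acid hydroxylases, acyl-CoA thioesterases, a ketone body enzyme, and further genes known as targets of the receptor. They were chosen by name and function, and a probe was assigned to a gene through its RefSeq accession. They make up 37 of the 37074 genes that the array represents. By the place of the protein, 16 were counted as mitochondrial, 9 as peroxisomal, 2 as both, 4 as microsomal, 2 as cytosolic, 2 as secreted, 1 as nuclear and 1 as membrane-anchored. All 37 genes were well above background on all 6 arrays, so no member was lost to a filter on dim probes.

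Liver RNA of male L1-Tg mice was compared with liver RNA of male WT mice to describe the livers before any high-fat feeding. L1-Tg mice carry human NPC1L1, a cholesterol transporter, under the APOE promoter, which drives it in hepatocytes. The mice were hemizygous and the WT mice their littermates. The strain is B6;D2-Tg(APOE-NPC1L1)20Lqyu/J, and it was backcrossed to C57BL/6J for at least 8 generations. Both groups ate a control-fat diet (CFD), and the mice of the study were 6 to 12 weeks old. Each group has 3 arrays, each with the RNA of 2 or 3 mice pooled, so an SD here is a spread between pools and p-values measure no other spread. The 6 arrays lay on 1 slide and were scanned together, WT in slide row 1 and L1-Tg in slide row 2, so that slide row and genotype cannot be told apart. The tissue is bulk liver, in which fewer cells of a type and less RNA per cell cannot be told apart.

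PPAR-alpha is the receptor through which hepatocytes sense fatty acids. Bound to its partner RXR it switches on genes that carry fatty acids into mitochondria, shorten very long chains in peroxisomes, and hydroxylate the far end of the chain in the endoplasmic reticulum (omega-oxidation). In fasting its targets also serve ketone body formation, and Fgf21 and Angptl4 send the signal out of the liver. Acyl-CoA thioesterases, several of them strongly dependent on PPAR-alpha, release free fatty acids from coenzyme A.

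The arrays were alike in quality. The 75th percentile of spot intensity lay between 296 and 378, the share of spots well above background ran from 53.1% to 59.2%, and saturation marked 0 spots. Over the 22346 genes tested, arrays of a group correlated at 0.985 to 0.994 and arrays of different groups at 0.979 to 0.992. Of 13 hepatocyte markers measured, 13 were well above background on all 6 arrays. The mouse Npc1l1 probe, which does not measure the human transgene and so checks nothing about the genotype, was well above background on 1 L1-Tg and 2 WT arrays. L1-Tg replicate 2 stood apart in genes of the exocrine pancreas: the summed signal of 8 such genes was 6.64 on the log2 scale there and 3.33 to 3.54 on the other arrays. Levels below are log2 of the processed intensity minus the array's 75th percentile, and differences are L1-Tg minus WT on that scale. A level can be set only against the level of the same probe on another array.

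Most members had a lower mean level in L1-Tg liver, by small amounts, and none passed the test. The difference was below 0 for 31 of the 37 members, which is 83.8%, where 57.2% of all genes tested had a difference below 0. When arrays were scaled to their median it was below 0 for 24 members, where 33.9% of all genes tested were. With the 75th percentile as scale, the median difference was −0.15 over the members and −0.03 over all genes tested. The differences ranged from −0.73 for Acot1 to 0.66 for Vnn1. With limma and Benjamini-Hochberg adjustment over all genes tested, 0 of 37 members were called at an adjusted p under 0.05, the lowest adjusted p being 0.505 (Acot3), where 29 genes, or 0.13% of all genes tested, were called, 0.121% as higher and 0.00895% as lower. The count of members called was also 0 with unmoderated variances, as it had to be, since 0 of all genes tested were then called. At an unadjusted p under 0.05 there were 5 members, all lower in L1-Tg (Cpt1a, Ehhadh, Acot1, Acot3 and Acot4). They are 13.5% of the members, and of all genes tested 8.88% had such a p, 4.38% as lower and 4.5% as higher. The count of lower members fell to 0 without L1-Tg replicate 3, 3 without WT replicate 1 and 1 without WT replicate 2. Of all genes tested 2.04%, 4.27% and 4.36% were then lower at that p. The count rose without WT replicate 3, to Ppara, Hadha, Hadhb, Decr2, Acaa1b, Bdh1 and Acot1, where 6.71% of all genes tested were lower.

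**Figure D1:**
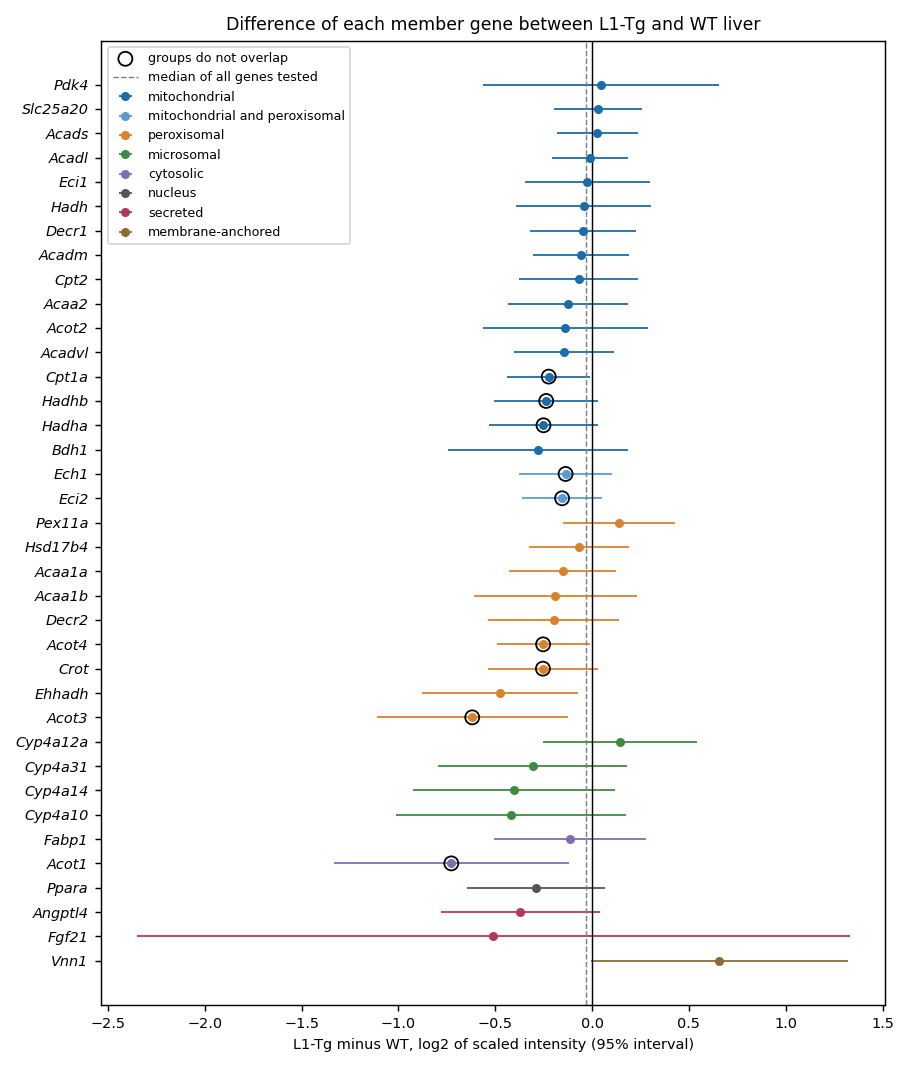
Difference in log2 scaled intensity, L1-Tg minus WT, for the 37 members, coloured by compartment. Points are limma estimates from 3 pools per group, bars are 95% intervals, rings mark members whose groups do not overlap, and the dashed line is the median of all genes tested (−0.03). Most points lie left of 0, and most intervals cross it.

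In 9 members the 3 L1-Tg pools lay entirely below the 3 WT pools, and in 0 members entirely above. Those 9 were Cpt1a, Hadha, Hadhb, Ech1, Eci2, Crot, Acot1, Acot3 and Acot4. They are 24.3% of the members, and of all genes tested 15.9% did not overlap, 8.71% lying entirely below and 7.21% entirely above. The count rose to 14 without L1-Tg replicate 1 and to 15 without WT replicate 3, when the same share over all genes tested was 14.8% and 18.5%. The study's difference index, the difference of the means divided by the sum of the SDs of linear signals, was past its threshold of 0.7 for 13 members lower in L1-Tg (35.1%) and 1 member higher (Vnn1), where 26.5% of all genes tested were past it, 14.8% as lower and 11.7% as higher.

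The choice of scaling moved these counts. With the array median in place of the 75th percentile, the median of all genes tested was 0.08 in place of −0.03, and the members split into 13 higher and 24 lower. Of all genes tested 33.9% were lower under that scaling. Cpt2, Acadl, Acadm, Hadh, Eci1, Decr1 and Hsd17b4 had differences above 0 both under that scaling and after quantile normalization, and Acaa1a and Fabp1 only after the latter. Under that scaling 1 member lay entirely below WT (Acot1) and 2 entirely above (Slc25a20 and Pex11a), where 2.59% of all genes tested lay below and 11.2% above. The index then passed 5 members as higher and 5 as lower, where it passed 19.3% of all genes tested as higher and 4.94% as lower. Relative to the median of all genes tested, the members' median was −0.12 under either scaling. That agreement was fixed in advance, since both scalings shift all genes of an array alike. After quantile normalization, which can move it, the members' median was −0.07 on this relative scale. Acot1 was the only member entirely below WT under each of the 8 alternative scalings, corrections, filters and probe rules. For Acot1 the filters and the probe rule could not change this, so only the scalings and the background correction could.

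**Figure D2:**
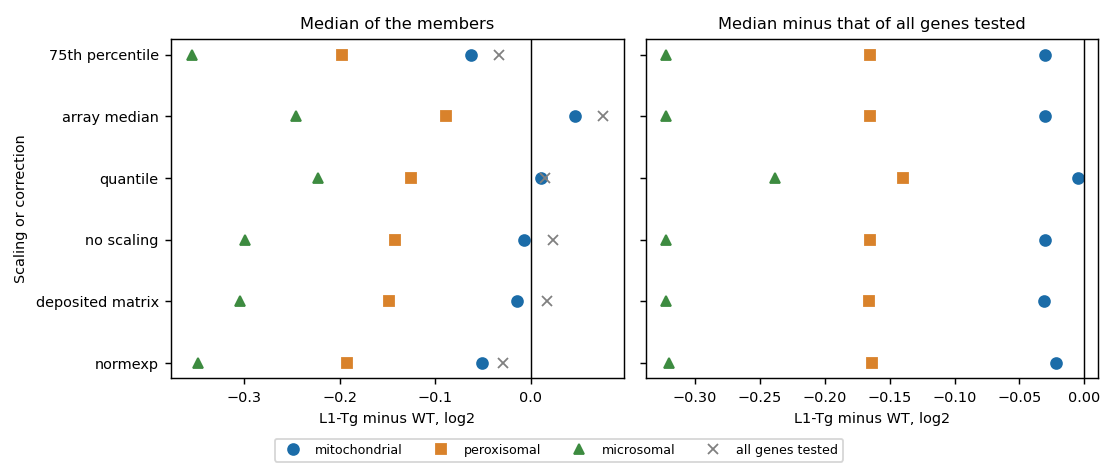
Median difference of the mitochondrial, peroxisomal and microsomal members under 6 ways to scale or correct the arrays, left as L1-Tg minus WT (log2) and right after subtracting the median of all genes tested under the same setting. On the left the mitochondrial median runs from −0.06 to 0.05. On the right it runs from −0.03 to just below 0, with the peroxisomal and microsomal medians further down under each of the 6. The settings other than quantile and normexp shift all genes of an array alike, so on the right they had to give the same values.

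Ppara itself, the receptor, had levels of 5.55, 5.57 and 5.69 in L1-Tg and 6.05, 6.03 and 5.59 in WT. WT replicates 1 and 2 were high, and WT replicate 3 lay among the L1-Tg pools. The difference was −0.29 (SE 0.15, adjusted p = 0.602 in limma). Without WT replicate 3 it was −0.44, over 1.5 times as large. The other 2 Ppara probes gave −0.14 and −0.25.

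The carnitine shuttle carries long-chain fatty acids into mitochondria, and its members differed. Cpt1a, the outer-membrane transferase that sets the rate of entry, stood at 5.67, 5.77 and 5.66 in L1-Tg and 5.87, 5.99 and 5.90 in WT. All L1-Tg pools were below all WT pools. The difference was −0.22 (95% interval −0.44 to −0.01), a ratio of 0.856, with an unadjusted p of 0.0434 and an adjusted p of 0.554 in limma. A second Cpt1a probe gave −0.39, also without overlap. Slc25a20, the carnitine-acylcarnitine carrier, and Cpt2, the inner-membrane transferase, had differences of 0.03 and −0.07 with overlapping pools.

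Within the mitochondrial spiral, the 4 acyl-CoA dehydrogenases, which begin each round, lay close to 0. Acadvl, for very long chains, differed by −0.15, Acadl by −0.01, Acadm by −0.06 and Acads by 0.03, and the groups overlapped for each. Acadl varied little between pools: its pooled SD of 0.024 was at the 0.2 percentile of all genes tested, and its 95% interval ran from −0.21 to 0.18. Hadha and Hadhb, the subunits of the mitochondrial trifunctional protein that completes the round for long chains, both had lower means in L1-Tg. Hadha stood at 2.67, 2.67 and 2.61 in L1-Tg against 2.99, 3.03 and 2.69 in WT. Hadhb stood at 5.86, 5.78 and 5.78 in L1-Tg against 6.19, 6.07 and 5.87 in WT. For both subunits all L1-Tg pools were below all WT pools, WT replicate 3 only just above. The differences were −0.25 (SE 0.12) and −0.24 (SE 0.11), each with an adjusted p of 0.579 in limma. Hadh, which takes shorter chains, and Acaa2, the last thiolase, differed by −0.04 and −0.12 with overlap.

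The auxiliary enzymes handle double bonds that the main spiral cannot. Eci2, an enoyl-CoA isomerase found in mitochondria and peroxisomes, stood at 6.41, 6.51 and 6.45 in L1-Tg and 6.59, 6.59 and 6.65 in WT. Its pools were tight and did not overlap, with pooled SD 0.045 and a difference of −0.16 (95% interval −0.36 to 0.05). Ech1, a dienoyl-CoA isomerase of the same places, differed by −0.14, also without overlap, and by −0.07 without L1-Tg replicate 3. Eci1 and Decr1, purely mitochondrial, differed by −0.02 and −0.05 with overlap, and a second Decr1 probe gave 0.13.

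In peroxisomes, Ehhadh, the bifunctional enzyme that hydrates and dehydrogenates the shortened chain and is among the strongest responders to PPAR-alpha agonists, had the largest difference of the oxidation core. It stood at 5.77, 5.22 and 5.37 in L1-Tg and 5.77, 6.06 and 5.96 in WT. L1-Tg replicate 1 and WT replicate 1 met at the same level, and the other pools did not overlap. The difference was −0.48 (95% interval −0.88 to −0.07), a ratio of 0.719, with an unadjusted p of 0.0275 and an adjusted p of 0.520 in limma. Hsd17b4, the other bifunctional enzyme, and the thiolases Acaa1a and Acaa1b differed by −0.07, −0.15 and −0.19, all with overlap. Acaa1b had levels of 7.32 and 7.35 in WT replicates 1 and 2, 6.76 in WT replicate 3 and 6.89 to 7.01 in L1-Tg. Decr2, the peroxisomal reductase, had 5.17 and 5.22 in WT replicates 1 and 2, 4.76 in WT replicate 3 and 4.82 to 4.88 in L1-Tg.

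Crot, which hands shortened chains to carnitine for export from peroxisomes, stood at 6.10, 6.13 and 5.89 in L1-Tg and 6.19, 6.46 and 6.23 in WT. The pools did not overlap, and the difference was −0.25 (SE 0.12, adjusted p = 0.579 in limma). Pex11a, which takes part in peroxisome division, was the only peroxisomal member with a higher mean in L1-Tg, by 0.14 with overlapping pools.

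All 4 acyl-CoA thioesterases had lower means in L1-Tg, 3 of them without overlap, and Acot1 had the difference furthest from 0 of the members. Acot1, the cytosolic form, stood at 4.46, 4.80 and 3.88 in L1-Tg and 4.93, 5.37 and 5.01 in WT. All L1-Tg pools were below all WT pools, with L1-Tg replicate 3 far below the others. The difference was −0.73 (95% interval −1.33 to −0.12), a ratio of 0.604, with an unadjusted p of 0.0261 and an adjusted p of 0.520 in limma, and it was −0.48 without L1-Tg replicate 3. Acot3, a peroxisomal form, stood at 1.40, 1.68 and 1.43 in L1-Tg and 2.22, 1.70 and 2.44 in WT. WT replicate 2 lay just above the highest L1-Tg pool, and the other WT pools were well above. The difference was −0.62 (95% interval −1.11 to −0.13), a ratio of 0.651, and a second, dimmer probe gave −0.65 with overlapping pools. Acot4, the peroxisomal form for dicarboxylic acids, stood at 1.43, 1.66 and 1.48 in L1-Tg and 1.75, 1.74 and 1.84 in WT. These pools did not overlap either, with a difference of −0.25 (95% interval −0.49 to −0.01). Acot2, the mitochondrial form, differed by −0.14 with overlap, and it gave 0.04 without WT replicate 2. The median over the 4 was −0.44. These genes are close paralogs, and probes could share signal between them.

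**Figure D3:**
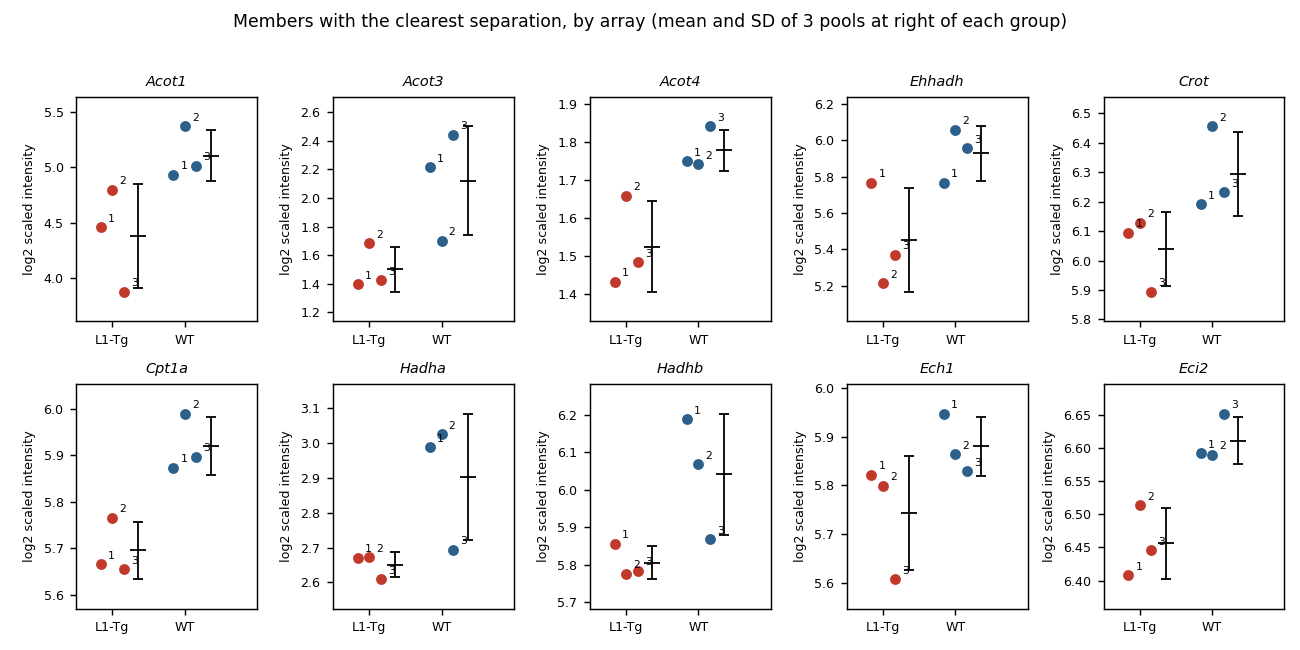
Log2 scaled intensity of 10 members on each array: the 9 members whose groups do not overlap, and Ehhadh. Points are pools, numbered by replicate, and the bar at the right of each group is the mean with the SD of 3 pools. Each L1-Tg point lies below each WT point except in Ehhadh, where the first replicates of both groups meet at 5.77.

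The microsomal members are Cyp4a enzymes, which hydroxylate the far end of fatty acids. Cyp4a10 stood at 8.27, 7.77 and 7.58 in L1-Tg and 7.92, 8.63 and 8.34 in WT. Cyp4a14 stood at 8.92, 8.48 and 8.22 in L1-Tg and 8.70, 8.91 and 9.22 in WT. Cyp4a31 stood at 7.93, 7.45 and 7.39 in L1-Tg and 7.58, 8.05 and 8.06 in WT. In all 3 genes L1-Tg replicate 1 was the highest L1-Tg pool and reached into the WT range, and WT replicate 1 was the lowest WT pool. The differences were −0.42, −0.40 and −0.31, with adjusted p from 0.616 to 0.655 in limma. Without L1-Tg replicate 1 all 3 lay entirely below WT, and Cyp4a10 differed by −0.62. Without WT replicate 2 Cyp4a10 differed by −0.25, and without L1-Tg replicate 3 by −0.28. All 3 probes of Cyp4a10 and all 3 of Cyp4a31 gave differences below 0, from −0.42 to −0.20, but the sequences of these paralogs are close enough that probes could share signal. Cyp4a12a, a form that depends on male hormones in mouse liver, differed by 0.14 with overlap.

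The members thus followed different orders among the pools. L1-Tg replicate 3 was the lowest of the 6 arrays for 15 members, and WT replicate 2 the highest for 15. WT replicate 3 was the lowest for 9 members. Leaving out WT replicate 3 set Ppara, Acadvl, Decr2, Acaa1b, Bdh1 and Fabp1 beside the 9 members as not overlapping. Leaving out L1-Tg replicate 1 set Acadm, Ehhadh, Cyp4a10, Cyp4a14 and Cyp4a31 beside them. The median pooled SD of the members was 0.165, and that of all genes tested was 0.168.

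Compared by compartment, the microsomal and peroxisomal medians lay below the mitochondrial median. The median difference was −0.06 over the 16 mitochondrial members, −0.20 over the 9 peroxisomal members and −0.36 over the 4 microsomal members, and 13, 8 and 3 of them had a difference below 0. With the array median as scale the medians were 0.05, −0.09 and −0.25. Relative to all genes tested they were −0.03, −0.17 and −0.32 under both scalings. That agreement was fixed in advance, since each scaling shifts all genes of an array alike. After quantile normalization, which can move them, they were −0.005, −0.14 and −0.24. For the mitochondrial members, the array medians relative to the WT mean were −0.09, −0.04 and −0.14 in L1-Tg and −0.02, 0.05 and −0.10 in WT, which overlap. For the peroxisomal members, they were −0.19, −0.21 and −0.16 in L1-Tg and −0.03, 0.15 and −0.06 in WT, without overlap. For the microsomal members, they were 0.01, −0.46 and −0.61 in L1-Tg and −0.28, 0.22 and 0.11 in WT, with L1-Tg replicate 1 inside the WT range. Members of a compartment are not replicates, and the difference between compartments was not tested. The mitochondrial median was −0.13 without L1-Tg replicate 2 or without WT replicate 3. The peroxisomal median was −0.12 without WT replicate 2, and the microsomal median was −0.54 without L1-Tg replicate 1 and −0.23 without L1-Tg replicate 3.

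Ketone body and fuel-switch members gave no difference past the spread between pools. Bdh1, the enzyme that interconverts the main ketone bodies, stood at 6.06, 6.10 and 6.30 in L1-Tg and 6.64, 6.63 and 6.02 in WT. WT replicate 3 was the lowest of the 6 arrays, so the groups overlapped. The difference was −0.28 (SE 0.19), and −0.49 without WT replicate 3. The other Bdh1 probes gave −0.22 and 0.03. Pdk4, the kinase that shuts off pyruvate oxidation in fasting, stood at −1.16, −0.65 and −1.20 in L1-Tg and −1.18, −1.38 and −0.57 in WT. The difference was 0.04 (95% interval −0.56 to 0.65), and its sign turned when L1-Tg replicate 2, WT replicate 1 or WT replicate 2 was left out.

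The secreted members are signals that act outside the hepatocyte. Angptl4, an inhibitor of lipoprotein lipase, stood at 5.79, 6.39 and 6.15 in L1-Tg and 6.58, 6.34 and 6.52 in WT. The only overlap was L1-Tg replicate 2 with WT replicate 2, and the difference was −0.37 (95% interval −0.78 to 0.04), or −0.21 without L1-Tg replicate 1. Fgf21, a hormone of the fasting and protein-restricted liver, stood at −0.33, 1.77 and −0.51 in L1-Tg and 1.74, −0.35 and 1.06 in WT. L1-Tg replicate 2 and WT replicates 1 and 3 were high and the other pools low, whatever the genotype. The pooled SD was 1.17, at the 99.3 percentile of all genes tested, and the difference of −0.51 had a 95% interval from −2.35 to 1.33. It was −1.24 without L1-Tg replicate 2, −1.09 without WT replicate 2 and −0.05 without WT replicate 1. Cfd, an adipocyte gene, was high on the same arrays, at −3.47, 0.80 and −4.00 in L1-Tg and 1.35, −3.83 and −1.08 in WT. Of the 6 adipocyte markers, 2 were tested and Lep was well above background on 0 arrays, and their summed log2 signal was 1.68 to 2.86 in L1-Tg and 1.21 to 2.98 in WT. Cfd was picked out after its values were seen, and the part of other cells in the Fgf21 values was not tested.

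**Figure D4:**
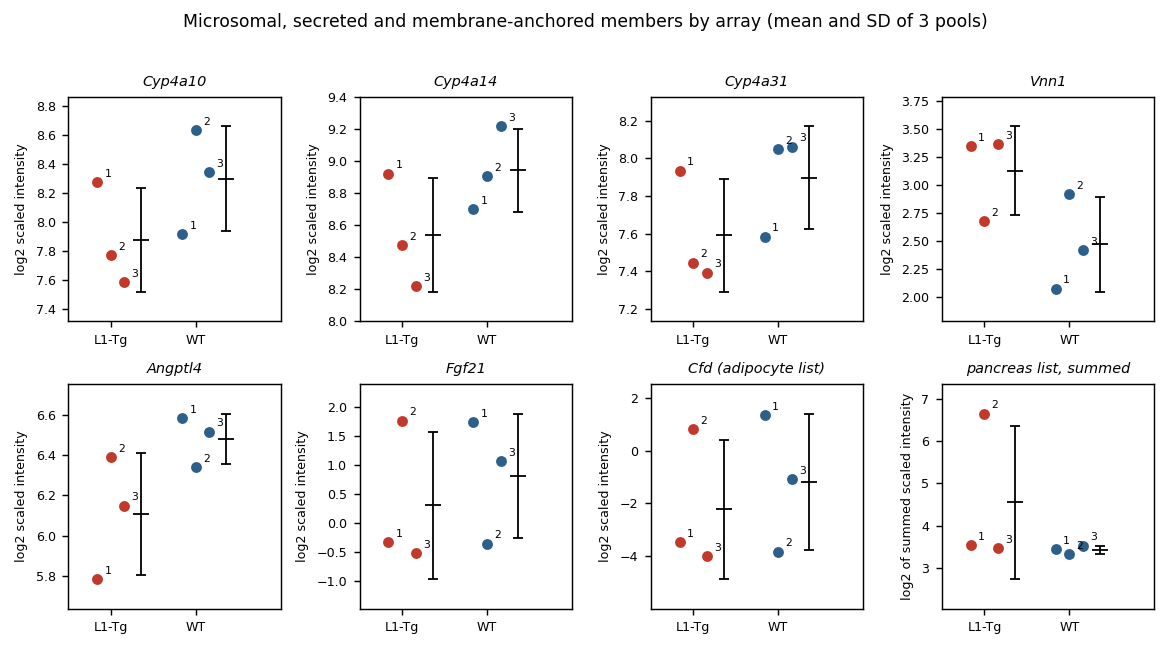
Log2 scaled intensity on each array of 3 microsomal members, Vnn1, Angptl4 and Fgf21, with Cfd of the adipocyte list and the summed signal of the pancreas list. Points are pools, numbered by replicate, with the mean and SD of 3 pools at the right. Fgf21 and Cfd are high in L1-Tg replicate 2, WT replicate 1 and WT replicate 3, and the pancreas list is high only in L1-Tg replicate 2.

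Vnn1, the membrane-anchored pantetheinase that recycles vitamin B5 and is a known PPAR-alpha target, had the largest difference above 0 of the members. It stood at 3.35, 2.68 and 3.36 in L1-Tg and 2.08, 2.92 and 2.42 in WT. L1-Tg replicates 1 and 3 were above all WT pools, and L1-Tg replicate 2 was below WT replicate 2. The difference was 0.66 (95% interval −0.01 to 1.32), a ratio of 1.58, with an unadjusted p of 0.0521 and an adjusted p of 0.560 in limma. The difference was above 0 under all 17 alternatives, between 0.46 and 0.88. Of these, only the scalings, the background correction and the arrays left out could change it.

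Fabp1, the cytosolic carrier that brings fatty acids to PPAR-alpha, stood at 9.66, 9.92 and 9.86 in L1-Tg and 10.13, 10.04 and 9.61 in WT. WT replicate 3 was again the lowest array, and the difference was −0.11 (SE 0.16). Its promoter is shown because it is the only one among the members with a promoter window that holds the direct repeat searched for here. The receptor pair PPAR-RXR binds repeats of a hexamer with 1 base between, and promoter windows of RefSeq, from 250 bases before to 50 bases after the start of each gene (GRCm38.p6), were searched on both strands for AGGNCA followed, after 1 base of any kind, by AGGNCA again. A window was found for 28 of the 37 members. The motif was present for 1 of those 28 and for 122 of 27025 genes in all, which is 0.451%. The Fabp1 window lies on the plus strand at chr6:71199629-71199928, and the capitals mark the match, which reads AGGCCATAGGTCA on the opposite strand and begins 67 bases before the start.
Fabp1: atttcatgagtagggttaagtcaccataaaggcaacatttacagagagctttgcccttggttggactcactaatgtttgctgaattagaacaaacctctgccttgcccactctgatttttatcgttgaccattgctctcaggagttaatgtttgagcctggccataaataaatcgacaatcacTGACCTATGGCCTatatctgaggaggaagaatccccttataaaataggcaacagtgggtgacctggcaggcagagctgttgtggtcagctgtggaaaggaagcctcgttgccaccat
The match is a description of letters in this window. For the other members with a window, only these letters in that window are missing. The 9 members without a window were not searched: Acaa2, Decr1, Hsd17b4, Cyp4a10, Cyp4a14, Cyp4a31, Cyp4a12a, Angptl4 and Vnn1.

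Further genes of the pathway had a median difference closer to 0 than that of the members, with single genes as far from 0. Of 104 other PPAR-alpha and fatty acid oxidation genes listed by function, 103 were tested, of which 36 had a difference above 0 and 67 below, with a median of −0.08. With limma 0 were called at an adjusted p under 0.05. At an unadjusted p under 0.05 there were 4, all lower in L1-Tg, which is 3.88% where 4.38% of all genes tested were lower at that p. Entirely below WT lay 7, or 6.8% against 8.71% of all genes tested, and entirely above lay 2, or 1.94% against 7.21%. These shares by p and by overlap are no larger than those over all genes tested. The share with a difference below 0 was 65%, against 57.2% of all genes tested. The index passed 18.4% as lower, against 14.8%, and 7.77% as higher, against 11.7%. Acot5, a further peroxisomal thioesterase, differed by −0.62 and stood at 1.104, 1.43 and 0.60 in L1-Tg and 1.48, 1.84 and 1.67 in WT, without overlap. The others at that p were Ephx2, an epoxide hydrolase of fatty acid epoxides (−0.40), Ppargc1b, a coactivator (−0.27), and Sirt3, a mitochondrial deacetylase (−0.25). Of those next by p, Ppargc1a, the coactivator of fasting, differed by −0.71 with overlap, and Rxra, the partner of PPAR-alpha, differed by −0.20 without overlap. Etfb, which takes electrons from the acyl-CoA dehydrogenases, differed by −0.23, and Gpd1, a glycerol phosphate dehydrogenase, by −0.26. Ucp2, a mitochondrial carrier, and Vnn3, a further vanin, had differences of 0.63 and 0.32, both with overlap.

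The values of other gene lists stand beside those of the members. Of all genes tested 57.2% had a difference below 0 and 42.8% above. At an unadjusted p under 0.05 in limma 4.5% of them were higher. Of 13 hepatocyte markers, 12 had a difference below 0, with a median of −0.13, and their summed log2 signal was 12.97 to 13.24 in L1-Tg and 13.12 to 13.26 in WT. Of 11 Kupffer cell and macrophage markers, 11 had a difference above 0, 0 at an unadjusted p under 0.05 in limma, and the summed signal was 7.44 to 7.67 in L1-Tg and 6.77 to 7.66 in WT. Of 17 circadian genes tested, 5 (29.4%) were lower in L1-Tg at an unadjusted p under 0.05 in limma, each without overlap. Of all genes tested 4.38% were lower at that p and 8.71% lay entirely below WT. After adjustment 0 circadian genes were called. The 3 with the smallest p were Per1 (−0.65, adjusted p = 0.292 in limma), Ciart (−0.65) and Cry2 (−0.31), all of the clock. Of 15 fasting genes tested, 9 had a difference below 0. Pck1, the gluconeogenic enzyme, differed by −0.46 without overlap, Gadd45b, a stress gene, by −0.70, and Cdkn1a, a cell cycle inhibitor, by 1.56, with overlap in both. Per the study, the mice had food ad libitum, and blood and bile were taken without fasting. The part of cell composition, of the time of day and of feeding state in the members' values was not tested.

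Of the other marker lists, stellate cell, endothelial, cholangiocyte, lymphocyte and neutrophil genes had summed levels that overlapped between the groups. Of these lists 10, 8, 5, 10 and 6 genes were tested, in that order. With limma 0 of them were called, where 0.13% of all genes tested were. At an unadjusted p under 0.05 there were 3, where 8.88% of all genes tested had such a p. The erythroid list was highest in L1-Tg replicate 2, at 8.33 against 7.22 to 7.46 on the other arrays. Without L1-Tg replicate 2, the array that stood apart in pancreas and erythroid genes, the members' median difference was −0.17. Of the members 11 then lay entirely below WT and 1 entirely above (Vnn1), where 15.9% of all genes tested lay entirely below and 11.5% entirely above.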

How the data were processed

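Cy3 signals of liver RNA were read on 1-color Agilent arrays and processed by the authors with Feature Extraction 10.10.1.1. What they deposited per spot is a processed signal, an intensity from which background was subtracted and which was not scaled between arrays. Per the file headers, marks (a score of 0 or 1) tell whether a spot is well above background, saturated or non-uniform. The deposited matrix holds the same intensity times 1 factor per array.

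From these files, control spots (3671 of 62976) were dropped, non-uniform spots set to missing, and repeated spots averaged (432 of 55681 probes). The log2 of each signal minus the array's 75th percentile was used. Of 28685 RefSeq names, 27235 were matched to a symbol. The probe with the highest mean stood for its gene, and genes well above background on all arrays of a group were tested (22346). limma 3.58.1 in R 4.3.3 gave two-sided p-values which were adjusted by Benjamini-Hochberg across the genes tested and called under 0.05. Values of further probes come from the same fit over 29453 probes. The difference index with its threshold of 0.7 follows the study's methods. Precision is set by having 3 arrays in a group, and an exact permutation test of 3 against 3 could not go below 0.1.

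The members and lists were chosen with earlier results of these data known, so their counts are descriptions. All members are named by rule. Of the wider list the 10 genes with the smallest p are named, and of the fasting and circadian lists the 3 with the smallest p. In simulated data with 22323 genes, 53% of genes changed by a log2 of 1 and 87% changed by 2 were called, with 7 false among 147 calls. The members' differences, from −0.73 to 0.66, are smaller than these changes, so the simulation does not give the share called at their size. Alternatives covered scaling, background correction, filter, probe rule, variance model, replicate block and each array left out.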

Additional observations from a re-analysis of the deposited data

How the results depend on the processing

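Under each alternative 0 of 37 members were called at an adjusted p under 0.05 in limma. With the array median as scale, the median difference was −0.043 over all members, 0.046 over mitochondrial and −0.089 over peroxisomal members; 1 member was higher and 1 lower at an unadjusted p under 0.05, 2 lay entirely above and 1 entirely below, and the index passed 5 higher and 5 lower. After quantile normalization these medians were −0.058 and 0.011 over all and mitochondrial members, with 1 higher and 3 lower at an unadjusted p under 0.05 and 4 entirely below. Without scaling 1 was higher and 2 lower at that p, 4 lay entirely below, and the index passed 5 lower. With the deposited matrix 1 was higher and 2 lower at that p, 4 lay entirely below, and the index passed 2 higher. With normexp 1 was higher and 8 lower at that p. Over these 5 scalings and corrections, the shares of all genes tested ran from 3.71% to 7.03% as higher and 1.41% to 5.09% as lower at that p, from 4.93% to 11.2% entirely above and 2.59% to 9.35% entirely below, and from 10.7% to 19.3% as higher and 4.94% to 15.7% as lower by the index. Without a filter 3 were lower at that p (3.93% of all genes) and 10 genes in all were called. Unmoderated variances gave 3 lower at that p (4.28% of all genes) and 0 genes in all called (1842 at an unadjusted p under 0.05). With trend, eBayes gave 9 lower (4.58% of all genes). With a filter on all 6 arrays 1 was higher at that p (4.19% of all genes). An index above 1 was met by 0 higher and 8 lower members. The share of all genes tested past 1 is not given here, so this count cannot be set against it. The stricter repeat of AGGTCA was found for 0 of the 28 members with a promoter window, against 13 of 27025 genes. Over the fits that left out 1 array, genes called ranged from 15 to 36, members lower at an unadjusted p under 0.05 from 0 to 7, higher from 0 to 1, entirely below from 10 to 15, entirely above from 0 to 3, past the index as higher from 0 to 4, and the mitochondrial and peroxisomal medians from −0.134 to −0.043 and −0.285 to −0.115. In these fits the shares of all genes tested ran from 2.04% to 6.71% as lower and 3.01% to 5.87% as higher at that p. They ran from 11% to 18.5% entirely below, 10.3% to 13.6% entirely above, and 12.5% to 16.6% as higher by the index.

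The same replicate numbers did not pair the pools (correlations of deviations −0.16, 0.11 and 0.02). With the replicate number as a block, 11 genes in all were called and 2 members were lower at an unadjusted p under 0.05. Of all genes tested 4.28% were lower at that p with the block. A block for slide or scan was not run, since there was 1 of each.

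Some members, none of them called, turned the sign of their log2 difference. With the array median as scale this was so for Cpt2 (0.039), Acadl (0.096), Acadm (0.053), Hadh (0.065), Eci1 (0.085), Decr1 (0.064) and Hsd17b4 (0.041). After quantile normalization this was so for Cpt2 (0.006), Acadl (0.015), Acadm (0.042), Hadh (0.036), Eci1 (0.049), Decr1 (0.036), Hsd17b4 (0.057), Acaa1a (0.002) and Fabp1 (0.029). Without scaling this was so for Acadl (0.043), Hadh (0.012), Eci1 (0.032) and Decr1 (0.011). With the deposited matrix this was so for Acadl (0.036), Hadh (0.006), Eci1 (0.026) and Decr1 (0.004). With the mean of all probes this was so for Decr1 (0.040). Over the fits that left out 1 array, signs turned within these ranges: Slc25a20 from −0.004 to 0.095, Pdk4 from −0.134 to 0.280, Cpt2 from −0.152 to 0.009, Acadm from −0.118 to 0.021, Eci1 from −0.095 to 0.101, Acadl from −0.023 to 0.006, Hadh from −0.142 to 0.094, Decr1 from −0.126 to 0.046, Hsd17b4 from −0.125 to 0.004, Acot2 from −0.230 to 0.040 and Acads from −0.003 to 0.060.

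The cause of these changes was not tested. The precision is limited by 3 pools per group, and differences near 0 have no settled sign.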
